A study of Homo sapiens with 9 samples.

Results

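The genes described here are those of cholesterol synthesis, uptake and sensing: the enzymes that build cholesterol, the proteins that read its level, and carriers that move and store it. The rule for the 28 members is a list of names by known role and uses no measured value, though the list was drawn up with earlier results of these data known. Each was represented by its brightest probe set among those carrying a single gene, taken as the highest mean over all 9 arrays. This gave 26 measured members of 19775 genes tested. FDFT1 had no such probe set in the annotation used here, and CYP51A1 lay only on probe sets that carry several genes, so neither is given a value.

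RNA came from A549, an established human lung adenocarcinoma line in which NRF2 is active without added stress. The cells received an siRNA against NRF2 (Nrf2 siRNA, 25 nM), a non-targeting siRNA (NS siRNA, 25 nM) or the transfection reagent with no siRNA (mock), and were harvested 96 h later. Each group had 3 samples labelled as biological replicates, each on its own Affymetrix array. The labels do not say whether these were grown on separate days, so the p-values measure the spread between these samples. The Nrf2 siRNA group is a knockdown in 1 cell line, and no second siRNA sequence or rescue sample is among the samples used here, so loss of NRF2 and other actions of this siRNA cannot be told apart. The series set out, by its title, to find genes regulated by NRF2.

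Animal cells make cholesterol from acetyl-CoA through mevalonate and the isoprenoid farnesyl diphosphate, which is then joined into squalene and closed into the first sterol, lanosterol. When membrane cholesterol is low, the escort protein SCAP carries the factor encoded by SREBF2 from the endoplasmic reticulum to the Golgi, where it is cut and released to switch on the synthesis genes. When sterols are plentiful, INSIG1 and INSIG2 hold SCAP back. NRF2, encoded by NFE2L2, is the transcription factor of the antioxidant response and acts through antioxidant response elements.

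NFE2L2, the target, was lower in the knockdown. Its log2 level was 12.07, 11.92 and 11.98 in the mock arrays, 12.09, 12.03 and 12.15 in the NS siRNA arrays, and 10.12, 10.32 and 10.30 in the Nrf2 siRNA arrays. The Nrf2 siRNA arrays lay below all 6 control arrays. The transcript fell by 1.84 ± 0.06 (SE, log2) against NS siRNA, a 3.58-fold difference with adjusted p = 1.92e-10 (limma), and by 1.74 ± 0.06 against mock with adjusted p = 6.07e-10. All values here are log2 expression levels, and a difference of 1 on this scale is 2-fold. A gene is called where the limma p, adjusted over all 19775 genes, is below 0.05.

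The epithelial markers fixed as a check of the cell type were present, with 7 of 7 measured and gene means between 8.27 and 14.94. Their mean level per array ran from 11.34 to 11.39 in mock, was 11.67 in the NS siRNA arrays, and ran from 11.89 to 12.0 in Nrf2 siRNA. It was highest in the Nrf2 siRNA arrays, as were 12 sterol genes. Of the 7 epithelial markers 3 rose and 1 fell against NS siRNA, beside 21.0% of all genes higher and 26.6% lower. KRT19 was 1.15, EPCAM 0.48 and CDH1 0.48 higher, KRT7 was 0.17 lower, and KRT8, KRT18 and CLDN4 did not pass. The 5 fibroblast markers had a mean level of 7.17 to 7.28 over all 9 arrays, with 0 of 5 called in any comparison, and the 4 endothelial markers a mean level of 6.88 to 7.04, with CDH5 called 0.19 higher than in NS siRNA. The immune markers, 4 of 6 measured, had a mean level of 7.19 to 7.29 in mock, 7.26 to 7.35 in NS siRNA and 7.47 to 7.57 with Nrf2 siRNA, and CD14 was the 1 of them called, 0.96 higher than in NS siRNA. The median level over all probe sets was 7.54. The part of these markers in the sterol results was not tested. In bulk RNA, a change in every cell and a change in the share of cells that express a gene cannot be told apart.

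Sterol genes were mostly higher after Nrf2 siRNA. Against NS siRNA, 18 of the 26 measured members rose, 4 fell and 4 did not pass the test. Over all genes, 21.0% were called higher and 26.6% lower in that comparison. The members' median difference was 0.23 on the log2 scale, beside -0.05 over all genes. Against mock, 14 rose, 3 fell and 9 did not pass, where 16.4% of all genes were called higher and 16.7% lower. The median was 0.20 for the members and -0.02 for all genes.

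Both comparisons use the same 3 Nrf2 siRNA arrays, so the second is no independent repeat of the first. Counted together, 13 members rose against both controls, 2 fell against both and 1 was called in opposite directions. The shares of all genes called higher and lower against both were 12.6% and 12.4%. In 12 members the 3 Nrf2 siRNA arrays lay above all 6 control arrays, and in 2 they lay below. Over all genes, 14.9% lay above and 17.0% below. All 26 measured members had a mean level above 7.54. Among the 13139 genes above that level, 28.7% were called higher and 31.2% lower against NS siRNA, and 22.0% and 22.5% against mock.

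**Figure D1:**
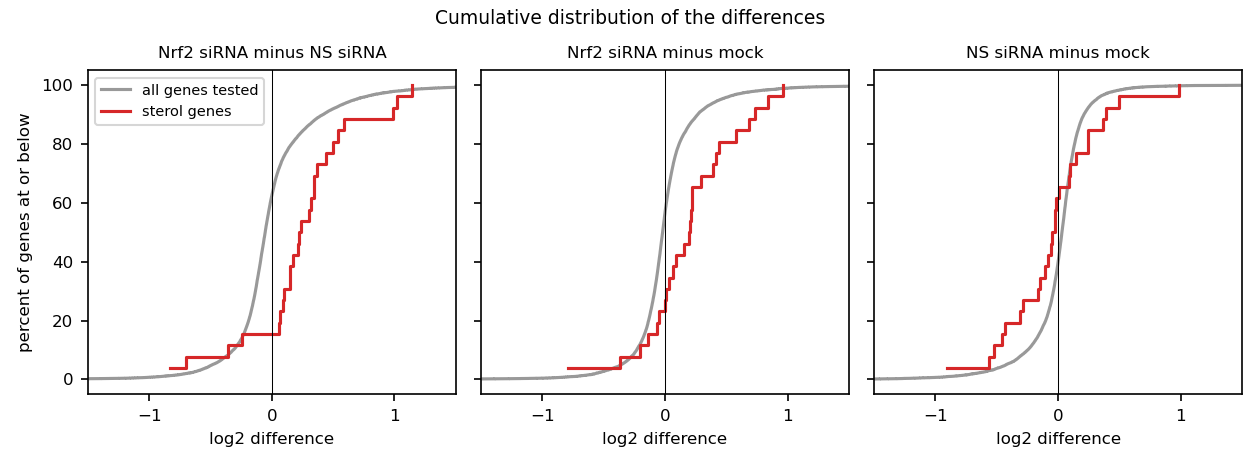
Cumulative distribution of the log2 difference in the 3 comparisons: the x axis is the difference between group means, the y axis the percent of genes at or below it, grey for all 19775 genes and red for the 26 sterol genes. The red line lies to the right of the grey one over most of its length in both Nrf2 siRNA comparisons (medians 0.23 and 0.20), and crosses it in NS siRNA minus mock (median -0.04).

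The controls differed from each other in 15 of the 26 members. In NS siRNA compared with mock, 7 members were higher, 8 lower and 11 did not pass, where 15.6% of all genes were called higher and 15.2% lower. The members' median difference was -0.04, and that of all genes 0.03. This comparison shares the NS siRNA arrays with the first, so a member that was low in NS siRNA is pushed up in the first and down in this one. PMVK, EBP, SCAP and NPC2 were each lower in NS siRNA than in mock, higher in Nrf2 siRNA than in NS siRNA, and did not pass between Nrf2 siRNA and mock. HMGCS1 and FDPS had the mirror pattern. For these 6 genes the call after Nrf2 siRNA was thus made against 1 control only.

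**Figure D2:**
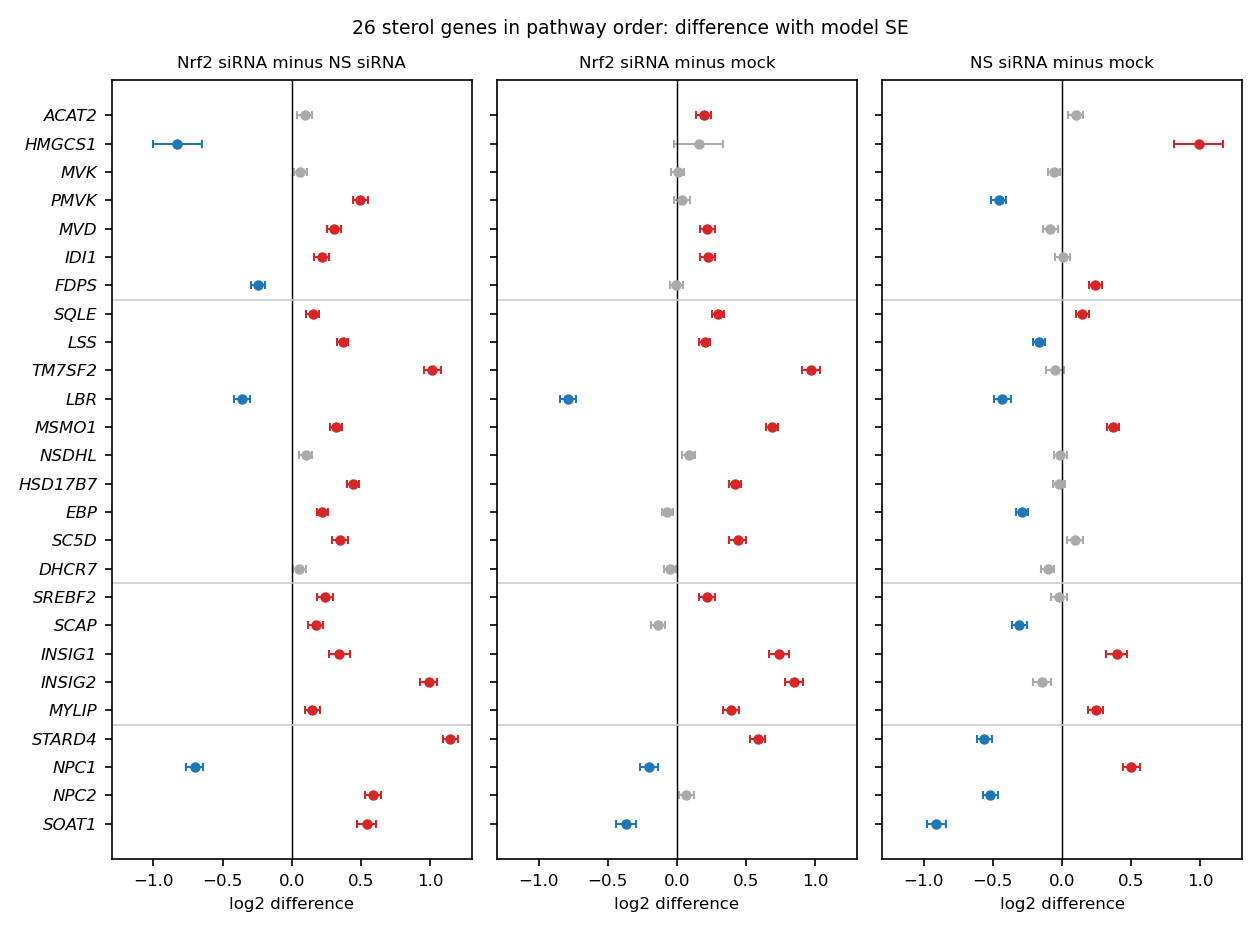
Log2 difference (x axis) of each of the 26 sterol genes in the 3 comparisons, with the SE from limma as bars; red points were called higher, blue lower, and grey did not pass. STARD4 has the highest value against NS siRNA (1.15) and TM7SF2 the highest against mock (0.97), while LBR lies left of 0 in all 3 comparisons.

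In the early steps, from acetyl-CoA to farnesyl diphosphate, 3 of 7 members rose and 2 fell against NS siRNA, and 3 rose with none falling against mock, beside 21.0% of all genes higher and 26.6% lower in the first comparison and 16.4% and 16.7% in the second. The share that fell against NS siRNA, 28.6%, was near that of all genes. MVD, the decarboxylase that yields isopentenyl diphosphate, had levels of 8.25, 8.35 and 8.16 in mock, 8.15, 8.18 and 8.18 in NS siRNA, and 8.52, 8.43 and 8.47 in Nrf2 siRNA. The Nrf2 siRNA arrays stood above every control array. MVD rose by 0.30 ± 0.05 against NS siRNA (adjusted p = 0.000325) and by 0.22 ± 0.05 against mock (adjusted p = 0.0052).

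IDI1, the isomerase that makes the allylic partner for chain growth, read 11.96, 11.93 and 11.88 in mock, 11.91, 12.02 and 11.86 in NS siRNA, and 12.17, 12.20 and 12.07 in Nrf2 siRNA. The Nrf2 siRNA arrays did not overlap the controls, and the difference was 0.22 ± 0.05 against each control (adjusted p = 0.00523 against NS siRNA and 0.00635 against mock). The IDI1 probe set is of a kind that can bind related transcripts, and the gene's probe sets disagreed: of its 4, the 2 brightest were higher and a dimmer one was called lower, by 0.23 against NS siRNA. Averaged over the 4, the difference was 0.04 (adjusted p = 0.502) against NS siRNA and 0.06 (adjusted p = 0.361) against mock.

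HMGCS1, the synthase that makes hydroxymethylglutaryl-CoA and a standard target of SREBF2, went the other way from most members. Mock arrays read 9.97, 9.17 and 9.58, NS siRNA arrays 10.67, 10.58 and 10.44, and Nrf2 siRNA arrays 10.09, 9.49 and 9.62. NS siRNA was above both other groups, which overlapped each other. The transcript fell by 0.83 ± 0.18 from NS siRNA to Nrf2 siRNA (adjusted p = 0.0018, 1.78-fold) and did not pass against mock (0.16 ± 0.18, adjusted p = 0.556). NS siRNA was 0.99 ± 0.18 above mock (adjusted p = 0.000882). This probe set had the widest spread of any member in mock (SD 0.398) and Nrf2 siRNA (SD 0.315), where the median member's SD was 0.0451 and 0.059. The second HMGCS1 probe set varied less and gave -0.49 ± 0.06 against NS siRNA and 0.26 ± 0.06 against mock, the latter with adjusted p = 0.00387 over all probe sets. A fall against NS siRNA was thus called on both, and a rise over mock was called on the dimmer one only.

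FDPS, which makes farnesyl diphosphate at the branch to isoprenoids, had means of 11.48 ± 0.05 (SD, n = 3) in mock, 11.72 ± 0.04 in NS siRNA and 11.47 ± 0.07 with Nrf2 siRNA. It fell by 0.24 against NS siRNA (adjusted p = 0.00128), with a difference of -0.00 against mock. PMVK, phosphomevalonate kinase, averaged 9.73 ± 0.09 in mock, 9.27 ± 0.07 in NS siRNA and 9.76 ± 0.04 with Nrf2 siRNA. It rose by 0.49 against NS siRNA (adjusted p = 7.54e-06) and differed by 0.04 from mock (adjusted p = 0.672). ACAT2, the thiolase that makes acetoacetyl-CoA in the cytosol, passed only against mock, with 0.19 ± 0.05 and adjusted p = 0.0138. Without Nrf2 siRNA replicate 2 that became 0.17 with adjusted p = 0.0508, and without NS siRNA replicate 2 the difference from NS siRNA moved from 0.09 to 0.15 and passed. MVK, mevalonate kinase, did not pass in any comparison on its brightest probe set, with means of 10.39, 10.33 and 10.40 and 0.06 against NS siRNA (adjusted p = 0.278). Of its 3 dimmer probe sets, 2 passed against NS siRNA, at 0.14 (adjusted p = 0.0356) and 0.28 (adjusted p = 0.00494).

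In the sterol steps from squalene onward, 7 of 10 measured members rose and 1 fell against NS siRNA. Against mock, 6 rose and 1 fell. Over all genes, 21.0% were called higher and 26.6% lower against NS siRNA, and 16.4% and 16.7% against mock. The pair with the same reaction moved apart: TM7SF2 and LBR are both sterol reductases that remove the unsaturated bond left when lanosterol is demethylated. LBR is also the lamin B receptor of the inner nuclear membrane. Their promoters are shown because they held different motifs, as described with the promoter counts further on. Whether these motifs bear on the directions of the pair was not tested. The 250 bases before the annotated start are printed in the gene's direction, from RefSeq on GRCh38.p14, at chr11:65111622-65111871 (plus strand) and chr1:225428822-225429071 (minus strand). Capitals mark CCAAT on either strand, which reads ATTGG on the other one, and the antioxidant response element core TGACNNNGC.
TM7SF2: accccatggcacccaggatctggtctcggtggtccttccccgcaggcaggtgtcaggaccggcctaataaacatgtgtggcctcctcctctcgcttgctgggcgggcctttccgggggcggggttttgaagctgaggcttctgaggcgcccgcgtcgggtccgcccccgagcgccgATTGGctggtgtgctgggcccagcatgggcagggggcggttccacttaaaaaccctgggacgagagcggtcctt
LBR: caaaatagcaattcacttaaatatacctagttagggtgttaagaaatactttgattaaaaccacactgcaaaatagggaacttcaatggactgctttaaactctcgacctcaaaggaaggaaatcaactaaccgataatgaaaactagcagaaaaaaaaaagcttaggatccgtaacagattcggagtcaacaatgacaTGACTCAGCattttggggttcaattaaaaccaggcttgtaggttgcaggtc

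TM7SF2 had levels of 8.19, 8.24 and 8.06 in mock and 8.03, 8.22 and 8.09 in NS siRNA. In Nrf2 siRNA it read 9.19, 9.17 and 9.04, well above every control array. It rose by 1.02 ± 0.06 against NS siRNA (2.02-fold, adjusted p = 5.28e-08) and by 0.97 ± 0.06 against mock (1.95-fold, adjusted p = 1.79e-07). NS siRNA and mock overlapped, with a difference of -0.05 ± 0.06 (adjusted p = 0.607).

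LBR read 12.00, 12.05 and 12.06 in mock, 11.63, 11.60 and 11.60 in NS siRNA, and 11.11, 11.29 and 11.35 in Nrf2 siRNA. The 3 groups were fully separated, in the order mock, NS siRNA, Nrf2 siRNA from high to low. LBR fell by 0.36 ± 0.06 against NS siRNA (1.28-fold, adjusted p = 0.000238) and by 0.79 ± 0.06 against mock (1.73-fold, adjusted p = 4.62e-07). It was already 0.43 lower in NS siRNA than in mock (adjusted p = 0.000108).

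SQLE, squalene epoxidase and a rate-limiting enzyme of the pathway, moved little. Its levels were 12.10, 12.18 and 12.12 in mock, 12.29, 12.33 and 12.21 in NS siRNA, and 12.45, 12.42 and 12.41 in Nrf2 siRNA. The Nrf2 siRNA arrays were above all controls, by 0.15 ± 0.05 over NS siRNA (adjusted p = 0.0158) and 0.30 ± 0.05 over mock (adjusted p = 0.000243). Without NS siRNA replicate 3 the difference from NS siRNA was 0.12 with adjusted p = 0.0698. NS siRNA was 0.15 above mock with adjusted p = 0.0289, a call lost without mock replicate 1 or 3, or without NS siRNA replicate 1 or 2, at differences of 0.13, 0.14, 0.14 and 0.12. With the most variable SQLE probe set it was 0.07 (adjusted p = 0.551), and it did not pass with equal array medians (0.12, adjusted p = 0.0954) or the mean of the probe sets (0.11, adjusted p = 0.0539).

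LSS, lanosterol synthase, which closes the sterol rings, had 10.18, 10.19 and 10.17 in mock, 10.04, 10.00 and 9.99 in NS siRNA, and 10.37, 10.34 and 10.42 in Nrf2 siRNA. These values do not overlap between any of the groups. LSS rose by 0.37 ± 0.04 against NS siRNA (adjusted p = 1.07e-05) and 0.20 ± 0.04 against mock (adjusted p = 0.00237). The second LSS probe set, at a mean level of 8.8, did not pass against NS siRNA (0.11, adjusted p = 0.108) or mock (0.13, adjusted p = 0.0873). The dimmest, at a mean level of 6.32, was called lower by 0.36 against NS siRNA. The mean over the 3 LSS probe sets differed by 0.04 (adjusted p = 0.452) against NS siRNA and 0.10 (adjusted p = 0.091) against mock.

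The demethylation complex described here removes some, but not all, of the methyl groups that lanosterol carries. MSMO1, its oxidase, read 10.91, 10.95 and 10.97 in mock, 11.35, 11.33 and 11.26 in NS siRNA, and 11.60, 11.67 and 11.62 in Nrf2 siRNA. It rose in 2 steps, 0.37 ± 0.04 from mock to NS siRNA (adjusted p = 4.25e-05) and 0.32 ± 0.04 from NS siRNA to Nrf2 siRNA (adjusted p = 6.93e-05), 0.69 in all (1.61-fold, adjusted p = 1.45e-07). HSD17B7, its ketone reductase, gave levels in mock of 10.24, 10.20 and 10.22, with NS siRNA at 10.24, 10.20 and 10.14 and Nrf2 siRNA at 10.63, 10.65 and 10.63. The controls overlapped and the Nrf2 siRNA arrays were above both, by 0.44 ± 0.04 (adjusted p = 2.39e-06) and 0.42 ± 0.04 (adjusted p = 7.65e-06). The HSD17B7 probe set, like those of IDI1 and MYLIP, can bind related transcripts, and the pseudogene HSD17B7P2, on a probe set of its own, was 0.30 ± 0.08 higher than in NS siRNA (adjusted p = 0.00957). Signal from this pair cannot be fully told apart. NSDHL, the decarboxylating dehydrogenase of the complex, did not pass in any comparison, with 0.10 (adjusted p = 0.0964) against NS siRNA.

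The last steps rearrange the remaining bonds of the sterol ring. SC5D, a desaturase, read 9.98, 10.03 and 9.97 in mock, 10.09, 10.15 and 10.01 in NS siRNA, and 10.51, 10.48 and 10.30 in Nrf2 siRNA. It rose by 0.35 ± 0.06 against NS siRNA (adjusted p = 0.000307) and 0.44 ± 0.06 against mock (adjusted p = 7.96e-05), without overlap. The dimmer SC5D probe set, at a mean level of 7.19, gave 0.17 against NS siRNA (adjusted p = 0.0436) and 0.03 against mock (adjusted p = 0.773). EBP, a sterol isomerase, had means of 11.69 ± 0.04 (SD, n = 3) in mock, 11.40 ± 0.02 in NS siRNA and 11.62 ± 0.02 with Nrf2 siRNA. It rose by 0.22 against NS siRNA (adjusted p = 0.000736) and differed by -0.07 from mock (adjusted p = 0.249). The mean over the 4 EBP probe sets gave 0.04 (adjusted p = 0.388) against NS siRNA, and the dimmest was called lower. DHCR7, which performs a final reduction, did not pass in any comparison (means 10.32, 10.22 and 10.27).

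**Figure D3:**
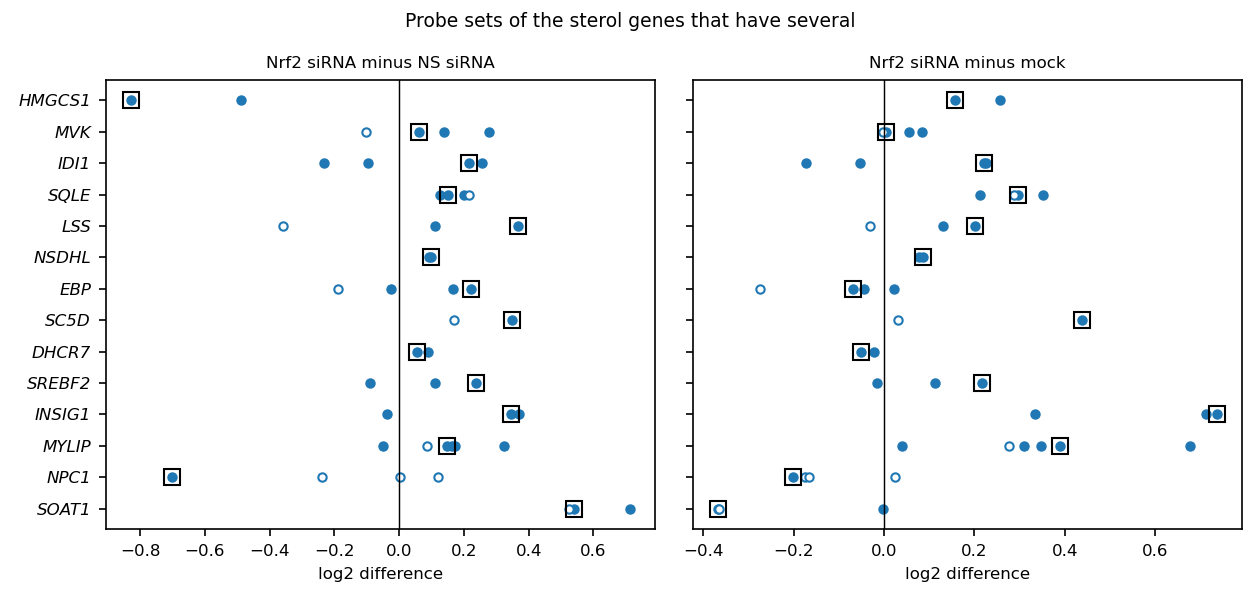
Log2 difference (x axis) of each probe set of the 14 sterol genes that have several, for Nrf2 siRNA against NS siRNA and against mock, with a square on each gene's brightest probe set and open points for probe sets below the median level of 7.54. Of the 11 such genes called against NS siRNA, 4 had all probe sets on the same side of 0, and IDI1, LSS and EBP each had a dimmer probe set called in the other direction.

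All 5 sensing members rose against NS siRNA, and 4 of the 5 rose against mock, beside 21.0% and 16.4% of all genes. The calls of SREBF2, SCAP and MYLIP against NS siRNA were not kept in every alternative analysis, as given below. SREBF2 and INSIG2 are shown by their promoters, since the SREBF2 window was the only one of a member to hold the sterol regulatory element core TCACCCCAC and the INSIG2 window held an antioxidant response element core. The windows are chr22:41832855-41833104 and chr2:118088221-118088470 (GRCh38.p14, both on the plus strand), with these motifs and CCAAT in capitals, on either strand. RefSeq lists a second start for INSIG2 that is not shown, and the window of that start held no antioxidant response element core.
SREBF2: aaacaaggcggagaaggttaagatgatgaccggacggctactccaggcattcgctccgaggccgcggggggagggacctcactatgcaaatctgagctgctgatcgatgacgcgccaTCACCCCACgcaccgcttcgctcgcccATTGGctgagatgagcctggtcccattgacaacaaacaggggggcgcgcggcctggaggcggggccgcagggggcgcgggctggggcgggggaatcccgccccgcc
INSIG2: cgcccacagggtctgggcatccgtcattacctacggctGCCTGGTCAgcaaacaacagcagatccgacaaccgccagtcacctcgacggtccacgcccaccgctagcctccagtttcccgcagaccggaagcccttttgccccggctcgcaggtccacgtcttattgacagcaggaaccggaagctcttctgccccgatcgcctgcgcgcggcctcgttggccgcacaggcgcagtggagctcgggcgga

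INSIG2, which anchors SCAP in the endoplasmic reticulum, read 8.67, 8.79 and 8.63 in mock, 8.63, 8.60 and 8.42 in NS siRNA, and 9.54, 9.60 and 9.48 in Nrf2 siRNA. The knockdown arrays were far above both controls, which overlapped. INSIG2 rose by 0.99 ± 0.06 against NS siRNA (1.98-fold, adjusted p = 5.75e-08) and by 0.84 ± 0.06 against mock (1.79-fold, adjusted p = 5.19e-07). INSIG1, its paralog and itself a target of SREBF2, read 10.08, 10.28 and 10.33 in mock, 10.74, 10.63 and 10.50 in NS siRNA, and 10.91, 11.03 and 10.95 in Nrf2 siRNA. Its groups were separated in that order. On its brightest probe set INSIG1 rose by 0.34 ± 0.07 against NS siRNA (adjusted p = 0.00198) and 0.74 ± 0.07 against mock (1.67-fold, adjusted p = 6.53e-06), of which 0.39 lay between mock and NS siRNA (adjusted p = 0.00131). The dimmest of its 3 probe sets gave -0.04 against NS siRNA (adjusted p = 0.646) and 0.33 against mock (adjusted p = 0.000724).

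SREBF2 itself had 9.16, 9.27 and 9.27 in mock, 9.19, 9.21 and 9.23 in NS siRNA, and 9.40, 9.57 and 9.37 in Nrf2 siRNA. The Nrf2 siRNA arrays lay above the controls by a small margin. SREBF2 rose by 0.24 ± 0.06 against NS siRNA (adjusted p = 0.00407) and 0.22 ± 0.06 against mock (adjusted p = 0.0105). The mean over its probe sets gave 0.09 against NS siRNA (adjusted p = 0.0716), and without mock replicate 1 the difference from mock was 0.18 (adjusted p = 0.0537). An array measures the SREBF2 transcript and not the cut, active protein.

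SCAP, the escort, averaged 10.25 ± 0.09 (SD, n = 3) in mock, 9.94 ± 0.03 in NS siRNA and 10.12 ± 0.07 with Nrf2 siRNA. It rose by 0.17 against NS siRNA (adjusted p = 0.0181) and differed by -0.14 from mock (adjusted p = 0.07). The first call was lost without NS siRNA replicate 3 (0.16, adjusted p = 0.0589) or Nrf2 siRNA replicate 2 (0.14, adjusted p = 0.0706), and the second passed at -0.18 without mock replicate 3 and at -0.17 without Nrf2 siRNA replicate 2. With all 9 arrays SCAP was also called lower than mock under quantile normalization (-0.16, adjusted p = 0.0112), among genes above the median level (adjusted p = 0.0429) and with a variance trend (adjusted p = 0.0456). MYLIP, a ubiquitin ligase that removes lipoprotein receptors and responds to sterol-sensing nuclear receptors, had means of 8.70 ± 0.05 in mock, 8.94 ± 0.09 in NS siRNA and 9.09 ± 0.06 with Nrf2 siRNA. It rose by 0.39 ± 0.06 against mock (adjusted p = 0.000122). The difference of 0.15 ± 0.06 from NS siRNA was close to the threshold (adjusted p = 0.043). It no longer passed without mock replicate 1 or 2 (0.15 each), NS siRNA replicate 1 (0.13) or 3 (0.11), or Nrf2 siRNA replicate 2 (0.12) or 3 (0.15). It also did not pass under quantile normalization (0.08, adjusted p = 0.213), with the mean of the probe sets (adjusted p = 0.0537), in an unmoderated test (adjusted p = 0.0823) or in a fit of these groups alone (adjusted p = 0.0641). The MYLIP probe set can bind related transcripts.

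**Figure D4:**
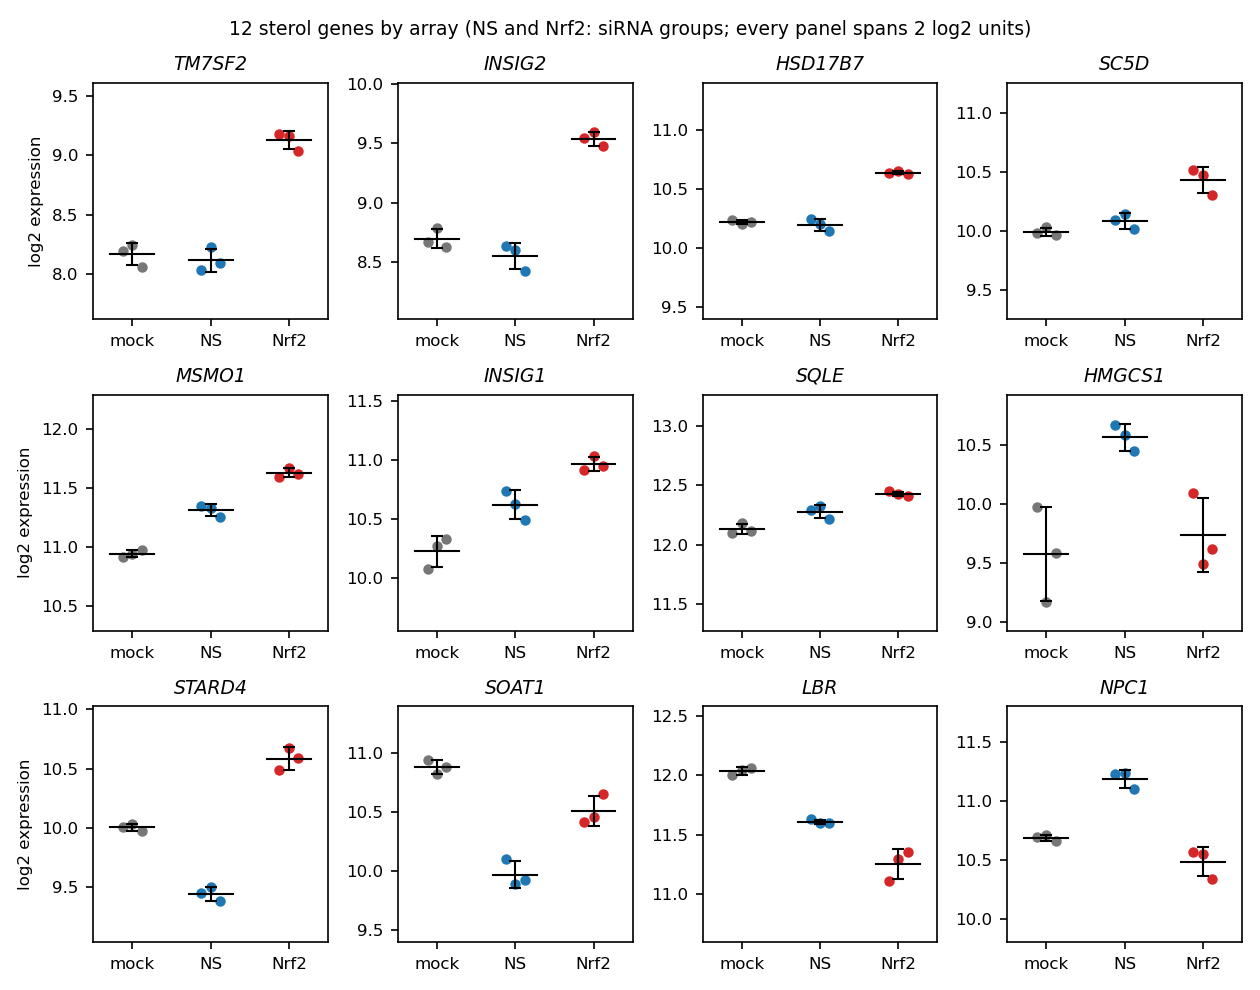
Log2 level (y axis) of 12 sterol genes in each of the 9 arrays, as points by group (NS is NS siRNA, Nrf2 is Nrf2 siRNA), with the mean as a long bar, the SD as an error bar and 2 log2 units in every panel. TM7SF2, INSIG2 and STARD4 are highest in all 3 Nrf2 siRNA arrays, LBR falls from mock to NS siRNA and again to Nrf2 siRNA, and HMGCS1 is highest in NS siRNA.

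Of the 4 carriers and storage enzymes, 3 rose and 1 fell against NS siRNA, while 1 rose and 2 fell against mock. Over all genes, 21.0% were called higher and 26.6% lower against NS siRNA, and 16.4% and 16.7% against mock. The share of the 4 that fell against NS siRNA, 25.0%, was near that of all genes. STARD4, a small cytosolic protein that ferries cholesterol to the endoplasmic reticulum and is a target of SREBF2, had the largest difference from NS siRNA among the members. Its promoter, at chr5:111512536-111512785 (GRCh38.p14, minus strand), is shown because it held 2 CCAAT boxes within 50 bases and no sterol element core or antioxidant response element core. CCAAT is in capitals.
STARD4: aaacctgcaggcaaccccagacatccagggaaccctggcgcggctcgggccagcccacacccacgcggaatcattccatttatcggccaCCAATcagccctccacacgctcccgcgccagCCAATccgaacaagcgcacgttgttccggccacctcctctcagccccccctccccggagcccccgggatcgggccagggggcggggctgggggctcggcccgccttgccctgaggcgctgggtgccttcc

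STARD4 levels were 10.01, 10.03 and 9.97 in mock, 9.44, 9.50 and 9.38 in NS siRNA, and 10.49, 10.68 and 10.59 in Nrf2 siRNA. No group overlapped another, with NS siRNA lowest. STARD4 rose by 1.15 ± 0.05 against NS siRNA (2.21-fold, adjusted p = 3.53e-09), and by 0.58 ± 0.05 against mock (1.5-fold, adjusted p = 3.24e-06). The difference depends on the control, since NS siRNA was 0.56 ± 0.05 below mock (adjusted p = 5.65e-06).

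SOAT1, which esterifies cholesterol for storage in lipid droplets, was called in opposite directions. It read 10.94, 10.82 and 10.88 in mock, 10.10, 9.89 and 9.93 in NS siRNA, and 10.42, 10.46 and 10.65 in Nrf2 siRNA. Nrf2 siRNA lay between the controls, with no overlap. SOAT1 rose by 0.54 ± 0.07 against NS siRNA (1.45-fold, adjusted p = 3.42e-05) and fell by 0.37 ± 0.07 against mock (1.29-fold, adjusted p = 0.0013), and NS siRNA was 0.91 below mock (1.88-fold, adjusted p = 9.16e-07). All 3 of its probe sets were higher than in NS siRNA; against mock 2 were called lower and the other differed by -0.00 (adjusted p = 0.974). Over all genes, 351 were called in opposite directions against the 2 controls.

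NPC1 and NPC2 hand cholesterol out of the lysosome, NPC2 in the lumen and NPC1 in the membrane. NPC1 read 10.69, 10.71 and 10.66 in mock, 11.23, 11.23 and 11.10 in NS siRNA, and 10.56, 10.55 and 10.34 in Nrf2 siRNA, below all controls. It fell by 0.70 ± 0.06 against NS siRNA (1.63-fold, adjusted p = 1.09e-06) and by 0.20 ± 0.06 against mock (adjusted p = 0.0249). The call against mock was lost without mock replicate 1 (-0.20, adjusted p = 0.067) or 2 (-0.19, adjusted p = 0.0702), and without Nrf2 siRNA replicate 3 (-0.13, adjusted p = 0.0993). NS siRNA was 0.50 above mock (adjusted p = 5.27e-05), a difference of 0.08 (adjusted p = 0.116) with the mean of the 4 NPC1 probe sets. A dim NPC1 probe set, at a mean level of 6.52, was called the other way in NS siRNA against mock (-0.29, adjusted p = 0.00276). NPC2 had means of 13.05 ± 0.09 (SD, n = 3) in mock, 12.53 ± 0.07 in NS siRNA and 13.12 ± 0.04 with Nrf2 siRNA. It rose by 0.59 against NS siRNA (adjusted p = 1.86e-06) and differed by 0.07 from mock (adjusted p = 0.404).

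Other genes of sterol metabolism were taken from 3 lists. Of 10 measured genes for SREBP processing, sterol-regulated degradation and oxysterol receptors, 3 rose and 1 fell against NS siRNA, and 3 rose and 2 fell against mock (medians 0.05 and -0.01). These are 30.0% and 10.0%, then 30.0% and 20.0%, beside 21.0% and 26.6% of all genes against NS siRNA and 16.4% and 16.7% against mock. MBTPS1, the protease that makes the first cut of SREBP in the Golgi, had the largest difference, rising by 0.57 (adjusted p = 3.18e-07) against NS siRNA and 0.27 (adjusted p = 0.000403) against mock. RNF139, a ubiquitin ligase of the endoplasmic reticulum, rose by 0.34 against NS siRNA and differed by 0.12 from mock (adjusted p = 0.0998). ERLIN2, a membrane protein that binds the INSIG complex, rose by 0.23 and 0.33.

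The isoprenoid branch leaves the pathway at farnesyl diphosphate. Of its 15 genes 2 rose and 7 fell against NS siRNA, and 1 rose and 4 fell against mock (medians -0.10 and -0.07). The shares that fell were 46.7% and 26.7%, beside 26.6% and 16.7% of all genes. PDSS1, which makes the side chain of coenzyme Q, fell by 0.69 (adjusted p = 2.9e-06) and 0.35 (adjusted p = 0.00147). RABGGTA, a subunit of the enzyme that attaches geranylgeranyl groups to Rab proteins, fell by 0.60 and 0.25. RABGGTB, the other subunit, fell by 0.27 against NS siRNA and differed by -0.07 from mock (adjusted p = 0.252). In NS siRNA against mock, 7 of the 15 were higher and 3 lower (46.7% and 20.0%, beside 15.6% and 15.2% of all genes).

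Among 29 measured genes of transport, export, esterification and oxidation outside the members, 17 rose and 4 fell against NS siRNA, and 13 rose and 4 fell against mock (medians 0.17 and 0.12). The shares that rose were 58.6% and 44.8%, beside 21.0% and 16.4% of all genes. SCARB2, a lysosomal membrane protein, rose by 0.84 (adjusted p = 7.98e-09) against NS siRNA but by 0.18 (adjusted p = 0.00591) against mock. NCEH1, which releases cholesterol from its esters, rose by 0.80 and 1.18 (adjusted p = 3.25e-08 and 2.11e-09). GRAMD1B, which carries cholesterol from the plasma membrane to the endoplasmic reticulum, rose by 0.80 and 0.30 (adjusted p = 1.76e-08 and 0.000211). In NS siRNA against mock, 4 of these 29 genes were higher and 12 lower (13.8% and 41.4%, beside 15.6% and 15.2% of all genes).

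RefSeq promoter windows of GRCh38.p14, from 250 bases before to 50 after the start, were listed for 25 of the 28 members. ACAT2, SQLE and FDFT1 were not among them. Each motif was searched on both strands, and a gene was counted where any of its listed windows held it. The sterol regulatory element core TCACCCCAC was in the window of SREBF2, with its first base 133 bases before the start, and of no other member. Over all genes, 0.535% of 27305 held it. A looser form, TCACNNCAC, which contains the first, was in 4.3% of all genes and among the members again in SREBF2 alone.

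CCAAT, the box bound by NF-Y, a partner of SREBP at sterol genes, was in 19 of the 25 members (76.0%), beside 39.7% of all genes and 42.1% of 15843 protein-coding genes. It was in 11 of the 12 members that rose against both controls and had a window, INSIG2 being the exception, and in 8 of the 12 other measured members. The antioxidant response element core TGACNNNGC was in 6 of the 25 (24.0%), namely EBP, HMGCS1, INSIG2, LBR, NPC2 and SOAT1, beside 16.1% of all genes and 17.9% of protein-coding genes. Of the 12 members that rose against both controls and had a window, 1 held it (INSIG2, in the shown window only). So did 5 of the 12 other measured members, which are not a group of 1 direction. EBP and NPC2 rose against NS siRNA only, SOAT1 was called in opposite directions, HMGCS1 fell against NS siRNA only, and LBR fell against both controls. HMGCS1 and NPC2, like INSIG2, held the antioxidant response element core in only 1 of their listed windows. The EBP match began at base 29 after the start. A match in these windows describes the sequence and shows no binding, and a window without a match says nothing of sites elsewhere. Only the letter patterns given were searched, so a window without a match may still hold a site spelled otherwise.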

How the data were processed

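Total RNA from 9 samples was hybridised to an Affymetrix array of 54675 probe sets. The authors deposited log2 values, with RMA named as the tool in the submitters' processing notes. Its version is not given in the sources used here. Scan dates and detection calls were not used here, so batches and background were not tested. Values ran from 3.6 to 15.06 and array medians from 7.51 to 7.57.

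Samples were grouped by title. Of the probe sets, 41091 carried 1 gene in the array annotation, 1801 several and 11721 were unnamed. Symbols were updated through Entrez identifiers (41037 matched). The brightest probe set stood for a gene, and no dim gene was filtered out, so all 26 measured members were tested. limma 3.58.1 in R 4.3.3 (lmFit, eBayes) fitted 3 group means over all 9 arrays, with 6 residual and 6.12 prior degrees of freedom. Two-sided p-values were adjusted (Benjamini-Hochberg) over 19775 genes, or over all single-gene probe sets where single probe sets are given. The code was tested on simulated data. Figures were drawn with matplotlib 3.10.9.

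The members and lists were chosen with earlier results of these data known. Values in every array are given for STARD4, TM7SF2, members that rose against both controls, or fell against both, without overlap with any control array, and members called in opposite directions. HMGCS1 was added after its values were seen, as were the values of single epithelial markers, CDH5 and CD14. Of each other pathway list, the 3 called genes with the largest difference from NS siRNA are named. Alternatives were other scalings, probe set rules, a level filter, other variance models, 2-group fits, a replicate block, a threshold of 0.01 and leaving out each array. A comparison of protein sequences was planned and not run. Some genes are not analysed here.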

Additional observations from a re-analysis of the deposited data

How the results depend on the processing

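With each array left out in turn, 15 to 19 members were called higher against NS siRNA and 4 to 4 lower, 13 to 14 higher and 2 to 4 lower against mock, and 6 to 7 higher and 8 to 8 lower in NS siRNA against mock. Members beyond all controls numbered 12 to 14 above and 2 to 2 below. Of the 54 other pathway genes, 19 to 22 were higher and 9 to 12 lower against NS siRNA, 16 to 18 and 7 to 11 against mock, and 8 to 12 and 16 to 19 in NS siRNA against mock. Under the other alternatives, 13 to 19 members were higher against NS siRNA (13 with the mean of the probe sets) and 12 to 14 against mock. Other pathway genes lower against mock numbered 6 in place of 10 in an unmoderated test and 6 at an adjusted p below 0.01, and those higher in NS siRNA against mock 7 in place of 12 at that threshold. Over all genes, that threshold left 3509 of 5266 lower calls against NS siRNA and 1932 of 3083 higher calls in NS siRNA against mock. LSS in NS siRNA against mock turned from -0.17 to 0.0602 with the mean of the probe sets, whose dimmest member was called the other way. Of 1482 single-gene results under an alternative, 1431 kept their side of the threshold with no called value changing sign, 40 lost the call, 10 gained one and 1 called value reversed. Part of this tally could hardly change, so it is no measure of robustness. For the 12 members with 1 probe set, the probe set rules returned the same values. The stricter threshold, the variance models and leaving out an array of the group not compared left each difference as it was. Of the 1431, 22 had the other sign, all in comparisons that did not pass; HMGCS1 against mock went from 0.16 to -0.04 without mock replicate 2 and to -0.02 without Nrf2 siRNA replicate 1. Equal array medians and quantile normalization left the median of all genes within 0.1 of 0. Replicate numbers were not taken to pair the samples, since no label says that a number marks a shared batch. The deviations of same-numbered arrays correlated at -0.208 to 0.231 (median 0.115, 5 of 9 over 0.1). Those of different-numbered arrays correlated at -0.342 to 0.2 (median -0.01, 4 of 18 over 0.1). Deviations from a mean of 3 arrays are tied to one another, so these values do not decide whether the numbers mark pairs. The SE of HMGCS1 against NS siRNA was 0.11 with a replicate block, in place of 0.18. With the replicate block, members called numbered 18 higher and 4 lower against NS siRNA, 14 and 3 against mock, and 7 and 9 in NS siRNA against mock, where INSIG2 (-0.15) was added with adjusted p = 0.0373. With 3 arrays a group, small differences such as those of NSDHL and DHCR7 were not resolved, and MVK passed on its most variable probe set (0.28 against NS siRNA, adjusted p = 0.00414, and -0.19 in NS siRNA against mock, adjusted p = 0.044). Dim probe sets have no background test here.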
